A study of Mus musculus with 16 samples.

Results

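The genes described here are 10 transcriptional outputs and feedback inhibitors of the RAS-ERK pathway, out of 55487 gene identifiers measured. They were taken by gene symbol, as the dual-specificity phosphatases Dusp4, Dusp5 and Dusp6, the Sprouty genes Spry1, Spry2 and Spry4, the SPRED genes Spred1 and Spred2, and the ETS factors Etv4 and Etv5. RNA sequencing was done on 16 samples of mouse mammary organoids, small clusters of gland cells kept in culture. The groups were WT organoids from normal breast (n = 3) and, from breast tumors, organoids with a PIK3CA mutation (n = 4, PIK3CA organoids), a HER2 mutation (n = 4, HER2 organoids) or both (n = 5, double-mutant organoids). The series title gives the mutations as V777L in HER2 and H1047R in PIK3CA. All 16 samples shared a medium with B27, N-acetyl-cysteine, epidermal growth factor (EGF) and medium conditioned with Rspo1 and Noggin, so no group lacked a ligand of the EGF receptor. How the mutations were introduced and the strain and age of the mice are not given in the sources used here, and nothing says which samples came from separate animals. The p-values therefore measure the spread between these samples, which may be technical. Genotype and tissue source cannot be told apart in a comparison with WT.

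ERK is the last kinase of a cascade in which receptor tyrosine kinases activate RAS, then RAF, then MEK. HER2 and the EGF receptor feed this cascade, while PIK3CA encodes the catalytic subunit of a lipid kinase on a parallel branch. Active ERK switches on genes that in turn dampen it. DUSP phosphatases remove phosphate from ERK itself, Sprouty and SPRED proteins act upstream at the level of the receptor, RAS and RAF, and ETV4 and ETV5 are transcription factors of the PEA3 subfamily that carry the signal to further genes. In the mammary gland, EGF and FGF receptor signalling through this cascade is known for its part in duct branching.

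Promoter sequence is shown for Dusp5 and Dusp6, phosphatases of the same family that followed different patterns across the genotypes. The RefSeq table of promoters (GRCm38.p6) held 7 of the 10 genes, in 8 windows of 300 bases around annotated starts. Dusp4, Spry4 and Etv4 were not matched. Capitals mark matches to the CArG box, the core of a serum response element, the type of site bound by serum response factor. The stretches end before the annotated transcripts begin. Dusp5 is shown from chr19:53528895-53529108 and Dusp6 from chr10:99262981-99263230, both on the plus strand.
Dusp5: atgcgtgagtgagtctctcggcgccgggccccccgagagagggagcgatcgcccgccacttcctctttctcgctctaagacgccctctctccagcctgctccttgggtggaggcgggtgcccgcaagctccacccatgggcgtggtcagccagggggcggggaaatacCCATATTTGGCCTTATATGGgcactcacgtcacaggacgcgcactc
Dusp6: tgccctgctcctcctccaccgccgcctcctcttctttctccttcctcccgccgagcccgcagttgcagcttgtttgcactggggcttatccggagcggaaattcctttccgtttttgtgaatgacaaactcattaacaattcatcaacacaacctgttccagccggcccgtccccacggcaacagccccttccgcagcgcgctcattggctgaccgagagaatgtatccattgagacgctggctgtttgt

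The Dusp5 stretch held 2 CArG boxes that abut, at chr19:53529063-53529072 and chr19:53529073-53529082. At least 1 CArG box was found in 1.63% of the 32851 promoter windows in the table, and 2 or more in 0.0183%, which is 6 windows. Among the 7 genes with a window, Dusp5 was the only one with a match. Other motifs were searched on both strands of the same windows. The ETS site CCGGAAGT, present in 3.89% of all windows, the cAMP response element TGACGTCA (1.79%) and the AP-1 site TGANTCA (7.81%) had no match in any of the 7 genes. The ETS core CCGGAA (14.9%), which lies within CCGGAAGT, had a match in Spry2, after its start. A match describes the letters of a window and not binding.

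A check of the HER2 labels came first, which does not bear on the PIK3CA labels. Erbb2, which encodes HER2, had 145 to 188 CPM in the 7 WT and PIK3CA samples, 2696 to 4632 CPM in HER2 organoids and 1499 to 2751 CPM in double-mutant organoids. CPM is the count scaled to the TMM-adjusted total of the sample. Total counts were 45545182 to 64168308 per sample, and the lowest count of any of the 10 genes was 244, so depth did not limit their detection. All 10 passed the filter on low counts. Epithelial marker genes were present in all samples, with summed levels of 2335 to 5249 CPM for 10 luminal markers and 265 to 1395 CPM for 9 basal and myoepithelial markers. Markers of other cells differed between the sources. The 10 macrophage and myeloid markers summed to 553 to 3393 CPM in WT and to 9.27 to 217 CPM in the mutants, and in double-mutant organoids Adgre1, Itgam and C1qa had at most 3 counts in every sample. The 8 fibroblast markers summed to 353 to 1941 CPM in WT, 68.5 to 486 in PIK3CA, 35.9 to 640.3 in HER2 and 26.9 to 60.9 CPM in double-mutant organoids. In bulk samples, fewer cells of a type and less RNA per cell cannot be told apart.

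Levels between genes were compared per exon length and scaled to the sample total, as TPM. Dusp6 was the most abundant, with a mean of 279.9 TPM over the 16 samples (range 146 to 388), followed by Etv5 with 216 and Dusp4 with 118 TPM. Spry2 had a mean of 107, Dusp5 65.7, Spred1 61.1, Spred2 41.8, Etv4 28.7, Spry4 18.8 and Spry1 11.4 TPM. Some neighbours in this order were not separated by sample. Dusp4 was above Spry2 in 9 of 16 samples, and Dusp5 was above Spred1 in 5. Spred1 was above Spred2 in all 16, and Dusp6 above Etv5 in 14. The place of Dusp5 moved with genotype, from a mean of 23.6 TPM in WT to 93.8 TPM in HER2 organoids.

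**Figure D1:**
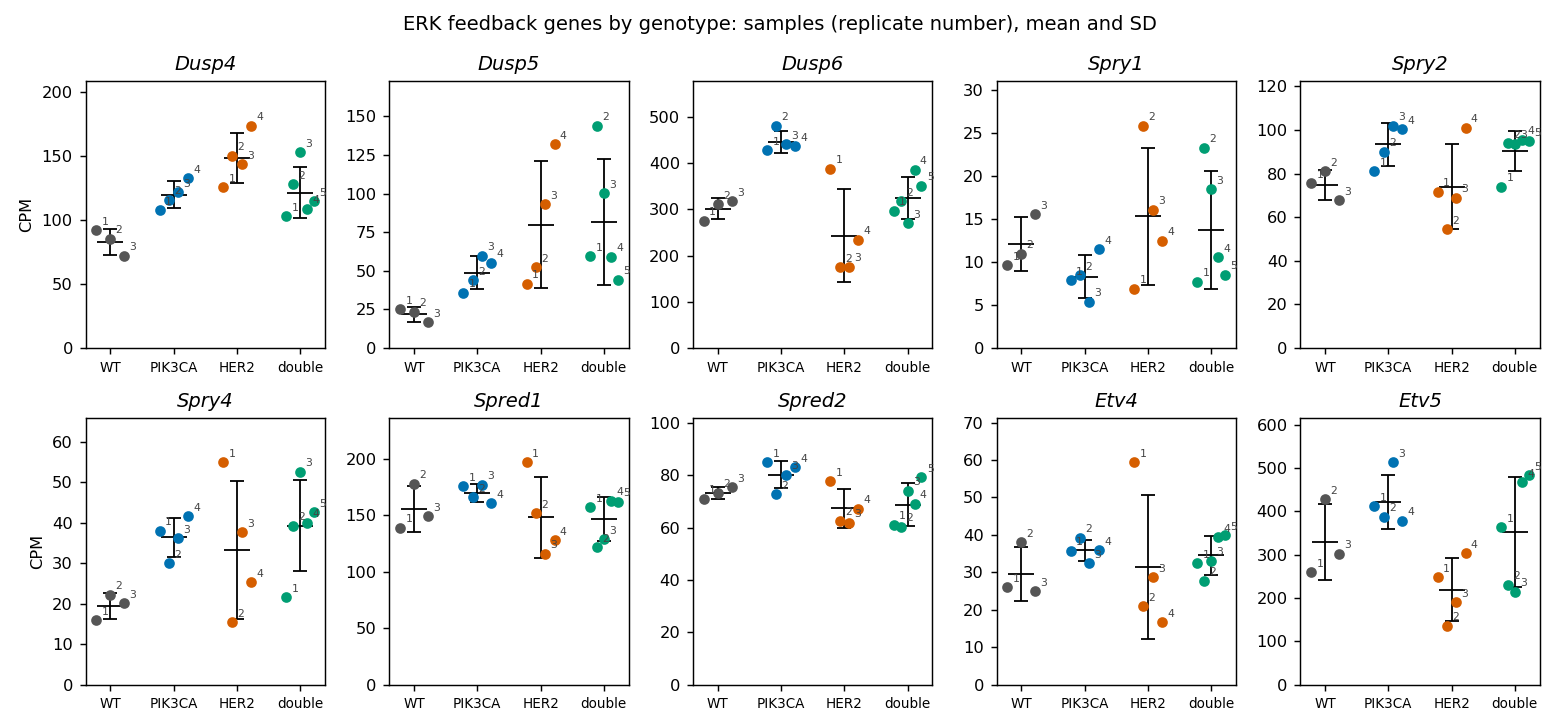
CPM (linear axis from 0) of each of the 10 genes in the 16 samples, by genotype. Points are samples with their replicate number, and bars are the mean and SD. Dusp4 and Dusp5 lie above WT in every mutant sample, while Dusp6 is highest in PIK3CA organoids, at 428 to 481 CPM.

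Dusp5 and Dusp4, which encode MAP kinase phosphatases of the nucleus, were the genes of the set that rose against WT. Both rose in HER2 organoids and in double-mutant organoids, and all samples of all 3 mutant genotypes lay above all WT samples for both. Taken singly, such separation from WT was seen for 13.8% of all genes in PIK3CA, 9.81% in HER2 and 9.68% in double-mutant organoids. The share of genes separated in all 3 at once was not computed. No other of the 10 genes passed the threshold against WT in any genotype. The test was edgeR's quasi-likelihood test in a fit of all 16 samples, with Benjamini-Hochberg adjustment over 24252 genes and a threshold of 0.05. The comparisons with WT share the same 3 WT samples. Other cells' markers moved in the same comparisons: in HER2 organoids 7 of 10 myeloid, 2 of 8 fibroblast and 4 of 9 basal markers were called lower, and in double-mutant organoids 10, 7 and 1. In PIK3CA organoids 10, 1 and 1 were called lower. The part of these cells in the Dusp4 and Dusp5 results was not tested.

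Dusp5 (ENSMUSG00000034765, chromosome 19, 53529109 to 53542431 in GRCm38, plus strand), whose promoter with its CArG boxes is shown above, changed most. It had 25.2, 23.5 and 16.6 CPM in the WT samples, 35.9, 44.1, 59.9 and 55.2 in PIK3CA organoids, 41.8, 52.3, 93.2 and 132 in HER2 organoids, and 59.6, 144, 100.3, 59.2 and 44.3 in double-mutant organoids, in the order of replicate number. The lowest mutant sample was above the highest WT sample, and replicates differed most in HER2 and double-mutant organoids, whose highest samples had 132 and 144 CPM. Against WT, Dusp5 was 3.66-fold higher in HER2 organoids (log2 fold change 1.87, standard error 0.427, edgeR adjusted p 0.0128) and 3.74-fold higher in double-mutant organoids (1.90, standard error 0.417, edgeR adjusted p 0.00734). In PIK3CA organoids its log2 fold change was 1.16 (95% confidence interval 0.28 to 2.04, edgeR adjusted p 0.145). WT replicate 3, the lowest in Dusp5, had the highest myeloid marker sum of the series, 3393 CPM. WT replicates 1 and 2 had sums of 1476 and 553 CPM, at 25.2 and 23.5 CPM of Dusp5. Without WT replicate 3 the edgeR adjusted p of Dusp5 was 0.0801 in HER2 organoids and 0.0582 in double-mutant organoids (2.92% and 4.68% of all genes passed). A fit restricted to HER2 and WT samples gave 0.0577 (2.37% of all genes passed). A total of 547 exonic bases of Dusp5 overlap an annotated antisense RNA on the other strand, and because strandedness is not given, reads of the antisense RNA cannot be told apart from those of Dusp5.

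Dusp4 (ENSMUSG00000031530, chromosome 8, 34807297 to 34819894, plus strand) changed by less but with a narrower spread. It had 92.3, 85.4 and 72.3 CPM in WT, 108, 116, 122 and 133 in PIK3CA organoids, 126, 150.4, 144 and 174 in HER2 organoids, and 103, 128, 153, 109 and 115 in double-mutant organoids. HER2 organoids held the highest level and did not overlap WT. The log2 fold change was 0.84 in HER2 organoids (standard error 0.155, edgeR adjusted p 0.00411), 0.54 in double-mutant organoids (standard error 0.148, edgeR adjusted p 0.0252) and 0.52 in PIK3CA organoids (standard error 0.153, edgeR adjusted p 0.0683). The call in HER2 organoids held in each of the 7 fits that left out a sample. In double-mutant organoids it was lost without WT replicate 2 (adjusted p 0.0618, where 9.3% of all genes passed), without WT replicate 3 (0.163) and in a fit restricted to double-mutant and WT samples (0.0503, where 11.7% passed).

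Dusp6, the cytoplasmic ERK phosphatase, followed another pattern. Dusp6 (ENSMUSG00000019960, chromosome 10, 99263231 to 99267489, plus strand) had 275, 311 and 317 CPM in WT, 428, 481, 440.4 and 436 in PIK3CA organoids, 388, 175, 176 and 234 in HER2 organoids, and 297, 318, 270.1, 386 and 351 in double-mutant organoids. All PIK3CA samples were above every other sample of the series, and HER2 replicates 2, 3 and 4 were below all WT samples. Pair by pair, 13.8% of all genes had all PIK3CA samples above all WT samples. All HER2 samples were below all PIK3CA samples for 6.87% of all genes, and all double-mutant samples for 4.5%. No share was computed for the joint pattern. Against WT the log2 fold change of Dusp6 was 0.57 in PIK3CA organoids (95% confidence interval 0.09 to 1.05, edgeR adjusted p 0.201). The 95% confidence intervals included 0 in HER2 organoids (-0.78 to 0.17) and in double-mutant organoids (-0.35 to 0.57). Dusp6 was lower in HER2 than in PIK3CA organoids, at 243 ± 100.5 CPM (SD, n = 4) against 446 ± 23.6 CPM (SD, n = 4). The log2 fold change was -0.88 (standard error 0.209, edgeR adjusted p 0.028). In the same comparison 5 of 9 basal and myoepithelial markers were called lower, and HER2 replicate 1, the highest HER2 sample in Dusp6, also had the highest sum of these markers, 974 CPM against 265 to 389.9 CPM in the other 3. In WT, replicate 3 had the lowest sum of these markers, 515 CPM, and the highest Dusp6 level. PIK3CA replicate 3 had a sum of 525 CPM against 1132 to 1395 CPM in the other PIK3CA samples, with 440.4 CPM of Dusp6. The part of basal cells in the Dusp6 result was not tested. This call held in 1 of the 8 fits that left out a sample, the fit without HER2 replicate 1 (adjusted p 0.000852, where 4.58% of all genes passed). In the other 7 the log2 fold change was -0.89 to -0.75 with adjusted p of 0.0503 to 0.0841, and restricting the fit to both genotypes gave 0.113 (2.49% of all genes passed).

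**Figure D2:**
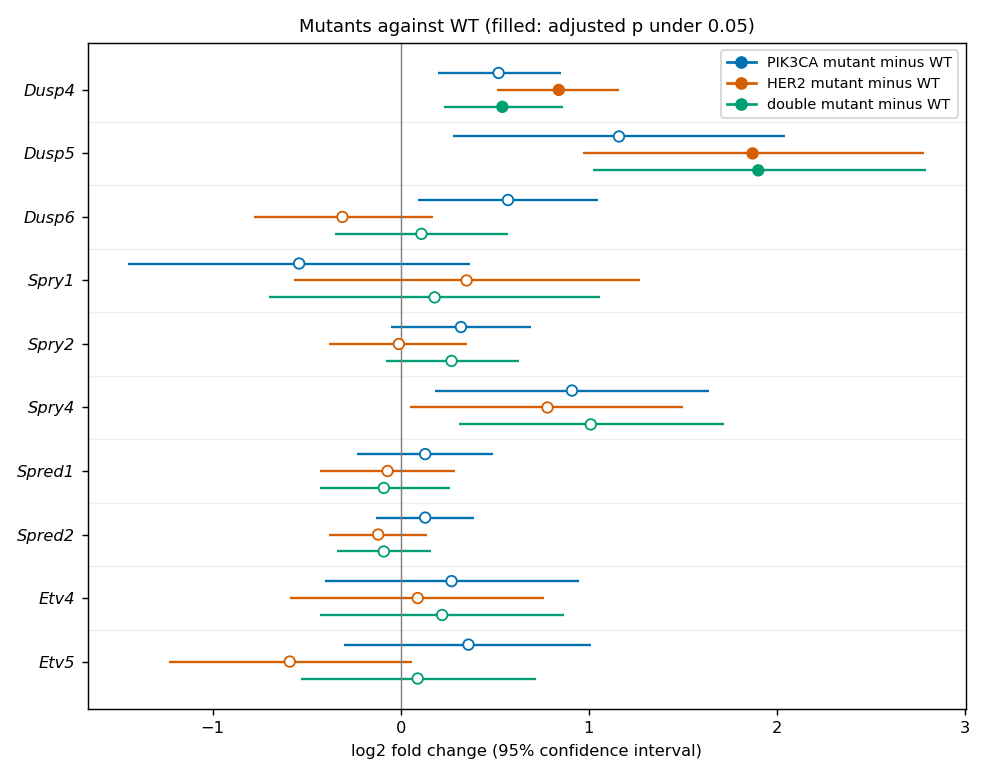
Log2 fold change of each gene in PIK3CA, HER2 and double-mutant organoids against WT (horizontal axis) with its 95% confidence interval. Filled points passed an edgeR adjusted p of 0.05. The filled points are Dusp4 and Dusp5 in HER2 and double-mutant organoids.

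Among the Sprouty genes, Spry4 lay furthest from WT. Sprouty proteins are membrane-associated inhibitors of receptor tyrosine kinase signalling. Spry4 (ENSMUSG00000024427) had 15.9, 22.3 and 20.2 CPM in WT, 38.1, 30, 36.2 and 41.6 in PIK3CA organoids, 55, 15.5, 37.7 and 25.3 in HER2 organoids, and 21.7, 39.3, 52.7, 40.1 and 42.7 in double-mutant organoids. PIK3CA organoids were separate from WT, whereas HER2 replicate 2 lay just below the lowest WT sample and double-mutant replicate 1 within the WT range. Against WT, the log2 difference was 0.91 in PIK3CA organoids (standard error 0.343, edgeR adjusted p 0.173), 0.78 in HER2 organoids (standard error 0.342, edgeR adjusted p 0.164) and 1.01 in double-mutant organoids (standard error 0.333, edgeR adjusted p 0.0605). In double-mutant organoids, Spry4 passed the threshold without replicate 1 (log2 fold change 1.17, adjusted p 0.0265, 12.3% of all genes passing), with DESeq2 (adjusted p 0.0267, 14.7%) and in the fit restricted to double-mutant and WT samples (0.0293). In HER2 organoids it passed without replicate 2 (log2 fold change 1.01, edgeR adjusted p 0.0389, 11.2% of all genes passing). Each of these left-out samples was the lowest of its genotype in Spry4, so leaving it out had to raise the difference.

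Spry2 and Spry1 did not pass against WT. Spry2 (ENSMUSG00000022114, chromosome 14, 105891947 to 105896819, minus strand) averaged 74.8 ± 6.78 CPM in WT (SD, n = 3), 93.5 ± 9.89 in PIK3CA organoids (SD, n = 4), 74.1 ± 19.6 in HER2 organoids (SD, n = 4) and 90.4 ± 9.21 in double-mutant organoids (SD, n = 5). The least abundant of the 10 genes, Spry1 (ENSMUSG00000037211, chromosome 3, 37639947 to 37644598, plus strand), averaged 12.1 ± 3.13 CPM in WT (SD, n = 3), 8.31 ± 2.49 in PIK3CA organoids (SD, n = 4), 15.4 ± 7.99 in HER2 organoids (SD, n = 4) and 13.7 ± 6.84 in double-mutant organoids (SD, n = 5). Between HER2 and PIK3CA organoids, Spry2 had a log2 fold change of -0.34 (standard error 0.16, edgeR adjusted p 0.266), which passed without HER2 replicate 4 (-0.52, adjusted p 0.0425). That replicate was the highest HER2 sample in Spry2. In Spry1, HER2 organoids ran from 6.9 CPM in replicate 1 to 25.9 CPM in replicate 2, a range that held every other sample but PIK3CA replicate 3, at 5.4 CPM. Spry1 shares 710 exonic bases with a gene model on the other strand, Gm42922, which had 0 to 10 counts in a sample.

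Spred1, Spred2 and Etv4 showed the smallest differences between genotypes. SPRED proteins inhibit RAS activation, and SPRED1 does so by bringing the RAS inactivator neurofibromin to the membrane. Over the 6 pairs of genotypes, the 18 log2 fold changes of these 3 genes lay between -0.25 and 0.27, none passed the threshold, and their 95% confidence intervals lay within -0.81 and 0.95. Spred2 (ENSMUSG00000045671, chromosome 11, 19924375 to 20024026, plus strand) had the narrowest spread of the set, at 73.3 ± 2.12 CPM in WT (SD, n = 3), 80.3 ± 5.31 in PIK3CA organoids (SD, n = 4), 67.4 ± 7.29 in HER2 organoids (SD, n = 4) and 68.8 ± 8.17 in double-mutant organoids (SD, n = 5). Spred1 (ENSMUSG00000027351, chromosome 2, 117121374 to 117182279, plus strand) had means of 156, 170.0, 148 and 147 CPM in the same order. Etv4 (ENSMUSG00000017724, chromosome 11, 101769742 to 101785371, minus strand) had means of 29.6, 35.9, 31.5 and 34.5 CPM, and the 2 extremes of the whole series were both HER2 organoids, replicate 4 at 16.7 and replicate 1 at 59.4 CPM.

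Etv5, the more abundant of the ETS factors, was lowest in HER2 organoids. Etv5 (ENSMUSG00000013089, chromosome 16, 22381309 to 22439719, minus strand) had 259, 428 and 302 CPM in WT, 411, 387, 513 and 378 in PIK3CA organoids, 248, 136, 190.2 and 304 in HER2 organoids, and 363, 231, 215, 467 and 483 in double-mutant organoids. All HER2 samples were below all PIK3CA samples, and the double-mutant organoids fell on both sides. The log2 fold change was -0.94 in HER2 against PIK3CA organoids (95% confidence interval -1.55 to -0.34, edgeR adjusted p 0.0721), -0.59 in HER2 organoids against WT (-1.23 to 0.06, adjusted p 0.24) and 0.68 in double against HER2 organoids (0.10 to 1.26, adjusted p 0.196). The difference between HER2 and PIK3CA organoids passed the threshold with DESeq2 (adjusted p 0.03, where 8.37% of all genes passed) and in the edgeR fit without HER2 replicate 4 (log2 fold change -1.14, adjusted p 0.0422, where 4.83% passed). Replicate 4 was the highest HER2 sample in Etv5.

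The counts of calls among the 10 genes were set beside the shares over all genes. In PIK3CA organoids against WT, 0 of the 10 genes passed, where 4.52% of all tested genes did, and 4 had an unadjusted p under 0.05 (all tested genes 16.8%). These 4, Dusp4, Dusp5, Dusp6 and Spry4, were also those with all PIK3CA samples above all WT samples, a separation seen for 13.8% of all genes. DESeq2 called 1 of the 10 (Dusp4, adjusted p 0.0356), where it called 6.65% of the genes it tested, and limma 0. In a fit restricted to PIK3CA and WT samples all 4 passed, with edgeR adjusted p of 0.00405 to 0.0124, and 18.3% of all genes passed in that fit. In the fit of all samples, 10 of 10 myeloid markers were called lower in PIK3CA organoids. The part of these cells in the 4 genes was not tested. In HER2 organoids against WT, 2 of 10 passed, both higher, where 10.4% of all genes passed and 4.75% were higher, and 9.81% had all HER2 samples above all WT samples. In double-mutant organoids against WT, 2 of 10 passed, both higher, where 11.8% of all genes passed and 5.03% were higher, and 9.68% had all double-mutant samples above all WT samples. The median log2 fold change of the 10 genes against WT was 0.34 in PIK3CA, 0.04 in HER2 and 0.20 in double-mutant organoids, and that of all genes -0.03, 0.03 and 0.01.

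The mutant genotypes, all from tumors, were compared with each other. HER2 and PIK3CA organoids differ in both mutations. These comparisons do not separate a mutation from other differences between the tumors. In HER2 against PIK3CA organoids, 1 of 10 genes passed, Dusp6 (4.41% of all genes passed, 2.2% as lower), and 5 had an unadjusted p under 0.05 (19.4% of all genes). These were Dusp6, Etv5 and Spred2, with negative log2 fold changes, and Dusp4 and Spry1, with positive ones. Dusp4 had a log2 fold change of 0.31 (95% confidence interval 0.01 to 0.61, edgeR adjusted p 0.232) and Spry1 of 0.89 (0.03 to 1.74, adjusted p 0.24). Spred2 had -0.25 (-0.50 to -0.01, adjusted p 0.233). Dusp6 and Etv5 were the 2 genes with all HER2 below all PIK3CA samples, a separation in this direction found for 6.87% of all genes.

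In double against HER2 organoids, 6 of 10 myeloid and 1 of 8 fibroblast markers were called lower, and 3 of 10 luminal and 2 of 9 basal markers higher. Mean Erbb2 was 2031 CPM in double-mutant and 3599.8 CPM in HER2 organoids. The part of these differences was not tested. Of the 10 genes, edgeR called 0 (2.5% of all genes passed, 249 higher and 357 lower, or 191 and 441 with upper-quartile scaling), DESeq2 0 (6.45%) and limma 0. Etv5 and Dusp4 were the 2 genes with an unadjusted p under 0.05 (17.8% of all genes). The log2 fold change of Dusp4 in double against HER2 organoids was -0.29 (95% confidence interval -0.57 to -0.01, edgeR adjusted p 0.266), and that of Dusp6 0.42 (-0.01 to 0.84, adjusted p 0.287). Without HER2 replicate 1, Dusp6 was higher in double-mutant organoids (log2 fold change 0.73, edgeR adjusted p 0.0132), where 2.64% of all genes passed. That replicate was the highest HER2 sample in Dusp6. Double against PIK3CA organoids also gave 0 calls of 10 (0.672% of all genes passed with edgeR), 0 with DESeq2 (2.66%) and limma, and 1 gene with an unadjusted p under 0.05 (12.4% of all genes). That gene was Dusp6, with a log2 fold change of -0.46 (95% confidence interval -0.88 to -0.04, edgeR adjusted p 0.346), and all double-mutant samples were below all PIK3CA samples, as for 4.5% of all genes. Dusp5 had a log2 fold change of 0.74 (standard error 0.358, adjusted p 0.416).

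**Figure D3:**
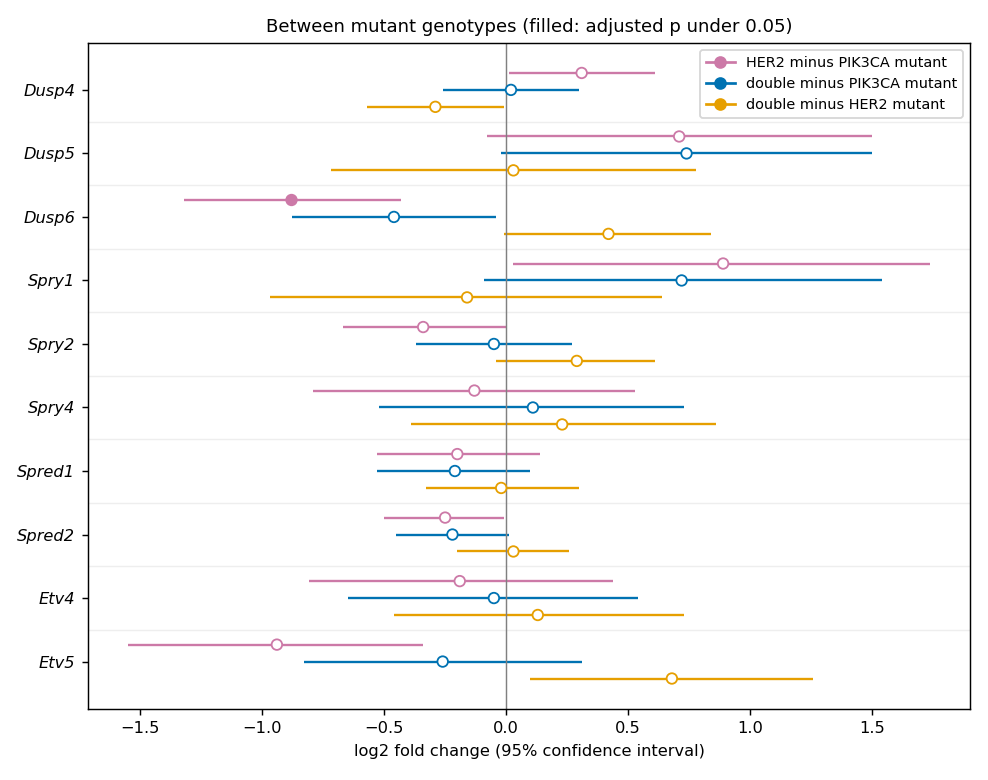
Log2 fold change of each gene between mutant genotypes (horizontal axis) with its 95% confidence interval. Filled points passed an edgeR adjusted p of 0.05. The single filled point is Dusp6 in HER2 against PIK3CA organoids, at -0.88.

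The interaction sets the HER2 change in PIK3CA organoids against the HER2 change in WT organoids. With edgeR 0 of the 10 genes passed it (1.06% of all genes did), with limma 0 and with DESeq2 1 (3.7%), and 1 had an unadjusted p under 0.05 (13.6% of all genes). That gene was Dusp4 in both cases, whose estimate was -0.81 (standard error 0.203, unadjusted p 0.00103, edgeR adjusted p 0.0702, DESeq2 adjusted p 0.017), meaning a smaller HER2 change where PIK3CA was also mutated. The estimate also passed with edgeR without HER2 replicate 1 (-0.88, adjusted p 0.0396, 1.42% of all genes passing) or without double-mutant replicate 3 (-0.91, adjusted p 0.0273, 1.07%). Within their genotypes, the former was the lowest sample in Dusp4 and the latter the highest. Of the 10 estimates, 8 were negative, with a median of -0.14 against 0.01 over all genes. The largest in size was that of Dusp5, -1.13 (standard error 0.539, edgeR adjusted p 0.375). Because WT organoids alone came from normal tissue, a change with tissue source common to all mutants also enters these values. Mean Erbb2 was 2031 CPM in double-mutant and 3599.8 CPM in HER2 organoids, and the part of this difference was not tested.

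No sample deviated from its genotype mean in 1 direction in all 10 genes, and a few libraries held the most extreme values. WT replicate 2 was above its genotype mean in 9 of the 10 genes, and double-mutant replicate 1 in 2. Some genes deviated together and others in opposite directions. Correlations of these deviations between genes ran from -0.77 (Dusp5 and Spred1) to 0.75 (Dusp4 and Dusp5). HER2 replicate 1 was the highest of its genotype in Dusp6, Spry4, Spred1, Spred2 and Etv4, and the lowest in Dusp4, Dusp5 and Spry1. Its log2 CPM differed from the HER2 mean by 1.09 in Etv4 and by -0.99 in Spry1. This library also had a basal and myoepithelial marker sum of 974 CPM, against 265, 270.5 and 389.9 CPM in the other HER2 organoids, and the highest myeloid sum of the mutants, 217 CPM. The part of these cells in its values was not tested. Its Erbb2 level, 3385 CPM, lay between those of the other 3.

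Double-mutant replicates 2 and 3 also stood apart. They held the highest levels of their genotype in Dusp5, Dusp4 and Spry1, at 23.3 and 18.5 CPM of Spry1 against 7.73 to 10.6 CPM in the other 3, and the lowest in Etv5 and Spred1. The Etv5 level was 231 and 215 CPM in these samples and 363 to 483 CPM in the others. Erbb2 split the double-mutant organoids in the same way, with 2751 and 2705 CPM in replicates 2 and 3 and 1499 to 1649 CPM in the others. Their myeloid marker sums were 68.1 and 56.1 CPM, against 13.1 to 16.3 CPM. In double-mutant organoids these sums were mostly 1 marker, Cd68, at 10.7 to 65.4 CPM. Each other myeloid marker had at most 1.88 CPM in any double-mutant sample. Neither Erbb2 nor the marker levels were tested as a source of the difference. With both left out, Dusp5 was still called against WT and Dusp4 was not (log2 fold change 0.38, edgeR adjusted p 0.0974), which left 1 of 10 genes (9.01% of all genes). In that fit Etv5 was higher in double than in HER2 organoids (log2 fold change 1.00, adjusted p 0.0367), which made 1 of 10 genes where 4.7% of all genes passed. The Dusp4 interaction was -0.98 (edgeR adjusted p 0.0121), again 1 of 10, where 4.17% of all genes passed. Replicates 2 and 3 were chosen for removal after these levels were seen. Leaving them out had to raise the double-mutant mean of Etv5 and lower that of Dusp4. The changed calls of this fit are therefore no separate evidence.

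**Figure D4:**
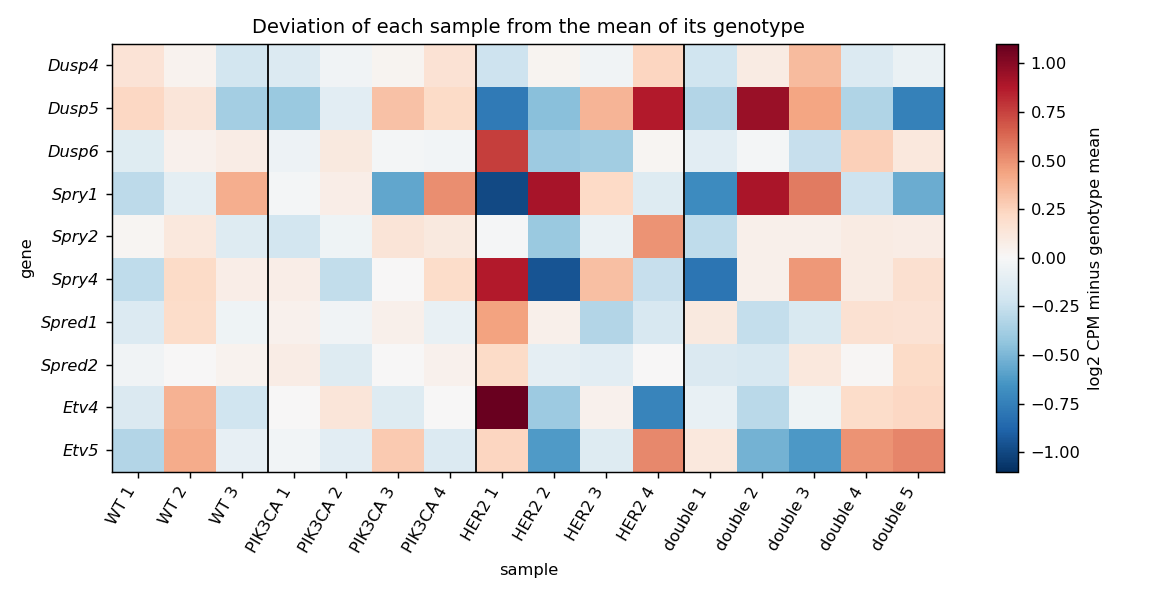
Log2 CPM of each gene (rows) in each sample (columns) minus the mean of its genotype, red above and blue below. HER2 replicate 1 is red in Dusp6, Spry4 and Etv4 and blue in Dusp5 and Spry1, and double-mutant replicates 2 and 3 are red in Dusp5 and Spry1 and blue in Etv5.

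Genes of the wider pathway were read from 3 further lists. Of 17 genes of the cascade from adaptor proteins to ERK, 1 was lower in PIK3CA organoids than in WT, 2 were lower in HER2 organoids, and 1 was lower in double-mutant organoids. Over all genes, 4.52%, 10.4% and 11.8% passed in these comparisons. The medians of the list were 0.13, -0.03 and -0.08 on the log2 scale. Gab1, a docking protein that links receptors to SHP2 and PI3K, fell in HER2 organoids (log2 fold change -0.91, standard error 0.124, edgeR adjusted p 0.000735) and in double-mutant organoids (-0.67, standard error 0.117, edgeR adjusted p 0.00162). Its mean level was 159 ± 21.2 CPM in the WT samples (SD, n = 3), 149 ± 6.87 in PIK3CA (SD, n = 4), 84.4 ± 11.6 in HER2 (SD, n = 4) and 99.5 ± 5.65 in double-mutant organoids (SD, n = 5). Shc1, an adaptor of receptor tyrosine kinases, fell in PIK3CA (-0.58, edgeR adjusted p 0.0256) and HER2 organoids (-0.79, adjusted p 0.00349). The call of Shc1 in PIK3CA organoids was lost when any of the 3 WT samples was left out, and also without PIK3CA replicates 1, 2 or 4. Those of Gab1, and of Shc1 in HER2 organoids, held in every fit that left out a sample.

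Of 18 other negative regulators, 17 were tested. In PIK3CA organoids 1 rose, in HER2 organoids 1 rose and 2 fell, and in double-mutant organoids 1 rose, where 4.52%, 10.4% and 11.8% of all genes passed. Dusp14, another dual-specificity phosphatase, rose in double-mutant organoids (log2 fold change 1.69, edgeR adjusted p 0.00247), from 3.51 ± 1.09 CPM in WT (SD, n = 3) to 11.4 ± 2.95 CPM (SD, n = 5). In PIK3CA organoids it was close to the threshold (1.15, edgeR adjusted p 0.0498), and that call was lost without WT replicate 1 or 3 and without PIK3CA replicate 1, 2 or 4. In HER2 organoids, Il17rd, an inhibitor of FGF receptor signalling, rose (1.46, adjusted p 0.0465). Lrig1, a negative regulator of ErbB receptors, fell (-0.67, adjusted p 0.0139), as did Rasa1, a RAS GTPase-activating protein (-0.46, adjusted p 0.0327). The Il17rd call was lost without any of the samples in turn except HER2 replicate 2, the Rasa1 call without any except HER2 replicate 4, and the Lrig1 call without WT replicate 1 or 3.

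Of 12 other ERK-responsive genes, 2 rose in PIK3CA and 2 in HER2 organoids, and in double-mutant organoids 4 rose and 1 fell, beside the same shares of all genes (4.52%, 10.4% and 11.8%). The medians of this list were 0.68, 0.59 and 0.64 on the log2 scale. Egr1, an immediate-early zinc finger factor, rose in PIK3CA organoids (log2 fold change 1.71, edgeR adjusted p 0.00705), from 655 ± 186 CPM in WT (SD, n = 3) to 2149 ± 486 CPM (SD, n = 4). Its call was lost without WT replicate 3, where 1.58% of all genes passed. Myc rose in HER2 organoids (1.67, edgeR adjusted p 0.00504) and in double-mutant organoids (1.25, edgeR adjusted p 0.0148). Ccnd1, which encodes cyclin D1, rose in all 3 mutant genotypes (1.71, 1.64 and 2.40). Leaving out WT replicate 1 or 3 ended the Ccnd1 call in PIK3CA and in HER2 organoids, and leaving out PIK3CA replicate 1, 2 or 4 ended it in PIK3CA organoids. In double-mutant organoids the 3 called genes with the largest change were Ccnd1 (2.40), Fosl1, an AP-1 subunit (3.02, edgeR adjusted p 0.0236), lost when any WT sample was left out and without both replicates 2 and 3 of the double-mutant organoids, and the ephrin receptor gene Epha4, which fell (-1.66, edgeR adjusted p 0.0122). In double against HER2 organoids, 0 genes of these 3 lists passed.

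The genes closest in profile to Dusp6, Spry2 and Etv4 were found by the root mean square difference of centred log2 CPM over the 16 samples, among 11745 genes. For Dusp6 these were Hs2st1, which encodes a heparan sulfate sulfotransferase (0.213), Lurap1 (0.215) and the phosphatase gene Phlpp1 (0.216), where Dusp6 itself had an SD of 0.441. Spry2 was closest to Chd9 (0.137), Ndfip1 (0.154) and Prkaca (0.164), with an SD of 0.261. Etv4 was closest to Sgpp1 (0.205), Evl (0.212) and Grhpr (0.225), with an SD of 0.425. None of the 10 genes was among the nearest 3 of Dusp6, Spry2 or Etv4, and with 3 places among 11745 genes this absence is uninformative.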

How the data were processed

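RNA was sequenced from 16 organoid samples. Per the labels' protocols, RNA was column-purified and libraries were made with a SMARTer mRNA-seq kit. The submitters' processing notes name STAR 2.0.4b, Subread, featureCounts 1.4.5, DESeq2 1.33.5 and the mm10 build (GRCm38), without role, and strandedness is not given in the sources used here. The authors deposited whole-number counts per gene. They also deposited normalized signal values, which equal each count divided by the sample's median-of-ratios size factor to within a relative difference of 5.55e-10. From 55774 entries, 287 identical repeats were dropped.

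Counts were tested with edgeR 4.0.16 in R 4.3.3 (filterByExpr, TMM, glmQLFTest, two-sided) fitted jointly to the 16 samples by genotype, and p-values were adjusted over 24252 genes. The standard error is the absolute log2 fold change divided by the square root of F. TPM used exon lengths from GENCODE M21. Alternatives used DESeq2 1.42.0, limma 3.58.1 on log2 of the normalized values plus 1, other scalings, filters and sample sets, and offsets for GC content and length. The scripts were tested on simulated data. The 10 genes and all lists were chosen with earlier results of these data known. The motifs, and the fit without 2 double mutant samples, were chosen after the data were seen. Named were the 10 genes and up to 3 called genes with the largest change in each pathway list, in mutants against WT and double against HER2 mutants. Also named were Erbb2, and the 3 genes nearest in profile to each of Dusp6, Spry2 and Etv4, among symbols that are no predicted-gene names, with a mean log2 CPM of at least 1. For the pathway lists, 1 gene is not reported here.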

Additional observations from a re-analysis of the deposited data

Results flagged for a closer look

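Spry2 in double mutant replicate 1 stood apart from its genotype, at 74 CPM against 93.7 to 95.5 CPM in the other 4 double mutants. The gap was 0.918 of the genotype's whole range, past Dixon's 95% limit for 5 samples. It was the only such value in 30 groups of 4 or 5 samples examined for the 10 genes, and chance flags about 1 in 20. The same sample was the lowest double mutant in Spry4, at 21.7 CPM, and in Spry1, at 7.73 CPM.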

How the results depend on the processing

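The counts of the 10 genes called varied most with the samples in the fit. In PIK3CA mutants against WT, 0 genes became 1 with DESeq2 and 4 when fitted without the other genotypes. In HER2 mutants against WT, 2 became 1 when fitted that way, and 1 to 3 without a sample. In double mutants against WT, 2 became 3 with DESeq2 and with the GC and length offset, 1 with the replicate number as a block, with and without that offset, 1 without double mutant replicates 2 and 3, and 0 to 3 without a sample. In double against HER2 mutants, 0 became 1 without double mutant replicates 2 and 3, and 0 to 1 without a sample. In HER2 against PIK3CA mutants, 1 became 2 with DESeq2, 0 without the other genotypes, 0 with the block, with and without the offset, and 0 to 2 without a sample. In the interaction, 0 became 1 with DESeq2 and without double mutant replicates 2 and 3, and 0 to 1 without a sample. Double against PIK3CA mutants gave 0 in every fit run.

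Same-numbered samples did not deviate together in every pair (correlations across genes of -0.16 to 0.27), and in no comparison did every sample correlate best with its own number. In double against HER2 mutants all 4 same-numbered pairs had positive correlations (0.07 to 0.27, mean 0.16 against -0.04 for other pairs). So few pairs cannot decide whether the numbers link samples. With the replicate block, Dusp4 in double mutants had an adjusted p of 0.0677 and Dusp6 in HER2 against PIK3CA mutants 0.0577, and no other of the 5 calls was lost. Among the named pathway genes, the block ended the calls of Dusp14 in PIK3CA mutants (adjusted p 0.0931) and Il17rd in HER2 mutants (0.137), and with the offset also those of Shc1 in PIK3CA mutants (0.0529) and Lrig1 in HER2 mutants (0.0664). The 29 fold changes with an unadjusted p under 0.1 kept their sign in all 548 alternative fits. Of the other 41, with estimates up to 0.67 in size, 25 changed sign in at least 1 fit, and those 25 had estimates of at most 0.38. Over the alternatives, the share of all genes called ran from 1.58% to 18.3% for PIK3CA, 2.37% to 13.8% for HER2 and 4.68% to 15.3% for double mutants against WT, 0.168% to 6.45% for double against HER2, 0.0536% to 2.66% for double against PIK3CA, 1.76% to 8.37% for HER2 against PIK3CA mutants and 0.144% to 4.17% for the interaction. Depth limited none of the 10 genes.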
